A study of Mus musculus with 52 samples.

Results

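The 10 immune checkpoint genes Cd274, Pdcd1lg2, Cd276, Vtcn1, Cd47, Pdcd1, Ctla4, Lag3, Havcr2 and Tigit were followed across primary osteosarcomas of the mouse. They were chosen by name from 20730 genes with raw counts, by matching Ensembl identifiers to mouse symbols, and all 10 were in the table. Cd3e, which encodes the epsilon chain of the T cell receptor complex, was read beside them in every library as a marker of T cells. The values were RNA-seq counts from flash-frozen bulk tumours, so fewer cells of a type and less RNA per cell cannot be told apart.

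The tumours came from mice of 3 genotypes at Trp53, the gene of the tumour suppressor p53. The p53R245W/fl tumours (17 libraries) carried an R245W missense allele beside a floxed allele, the p53R172H/fl tumours (19 libraries) carried an R172H missense allele beside a floxed allele, and the p53fl/fl tumours (16 libraries) carried a pair of floxed alleles and served as the reference. No group kept 2 unaltered Trp53 alleles, so every comparison is between altered genotypes, and the labels used here name neither the Cre driver nor the age of the mice. Trp53 itself had 22.0 to 60.1 CPM (counts per 1000000 of the library; median 34.7) in p53R245W/fl libraries and 26.1 to 49.2 CPM (median 36.2) in p53R172H/fl libraries, against 8.52 to 20.1 CPM (median 14.2) in p53fl/fl libraries. Both ranges of the missense genotypes lay above that of p53fl/fl.

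The 52 libraries held between 21596798 and 67223388 counts each, so that a floor of 3 counts was worth 0.0437 to 0.161 CPM in a library. They were put into 3 library sets by the prefixes of their column names. Set A joined the prefixes FM, FNM, WFM and WFNM, while set B had the prefix R1002 and set C the prefix R553. Set A had 8 p53R172H/fl and 8 p53fl/fl libraries and no p53R245W/fl library, set B had 6 of each genotype, and set C had 11 p53R245W/fl, 5 p53R172H/fl and 2 p53fl/fl libraries. Each of the 18 set B libraries had 1 mutual best match in set A or C, always of the same genotype (Spearman's rho 0.6465 to 0.9361, against at most 0.5125 for a second best match). The matched libraries were therefore averaged to 34 units (11 p53R245W/fl, 13 p53R172H/fl and 10 p53fl/fl) wherever independent samples were needed, and a unit is named by 1 of its library numbers. Labels do not say whether matched libraries are the same tumour, and p-values over 52 libraries treat them as separate samples. The p53R245W/fl units 1831 (libraries 494 and 1831), 1835 (libraries 408 and 1835) and 1580 stood apart from the rest by low Col1a1, the main collagen gene of bone matrix: 1119, 1683 and 4484 CPM, the lowest 3 of 34. Results that rest on them are given with and without them.

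Immune checkpoints are pairs of ligands and receptors that dampen an immune response. PD-1 (Pdcd1), CTLA-4 (Ctla4), LAG-3 (Lag3), TIM-3 (Havcr2) and TIGIT (Tigit) are inhibitory receptors, best known from activated and exhausted T cells, while TIM-3 is also made by macrophages and dendritic cells. PD-L1 (Cd274) and PD-L2 (Pdcd1lg2) are the ligands of PD-1, B7-H3 (Cd276) and B7-H4 (Vtcn1) are relatives of these ligands whose receptors are less certain, and CD47 (Cd47) binds SIRPα on macrophages and restrains phagocytosis. B7-H3 is a surface protein of many human sarcomas, osteosarcoma among them.

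The start regions of 5 members are shown, to set their base content beside the levels that follow: those of the 2 most abundant members, of the PD-1 ligand gene Cd274 and of the 2 receptors that followed Cd3e. Each window runs from 250 bases before to 50 bases after the RefSeq start on GRCm38.p6, 5′ to 3′ on the strand of the gene, with capitals marking the GC box GGGCGG and the TATA box TATAAA on either strand. The 5 windows are Cd276 at chr9:58554984-58555283 (−), Cd47 at chr16:49855404-49855703 (+), Cd274 at chr19:29367188-29367487 (+), Pdcd1 at chr1:94052504-94052803 (−) and Ctla4 at chr1:60908775-60909074 (+).
Cd276: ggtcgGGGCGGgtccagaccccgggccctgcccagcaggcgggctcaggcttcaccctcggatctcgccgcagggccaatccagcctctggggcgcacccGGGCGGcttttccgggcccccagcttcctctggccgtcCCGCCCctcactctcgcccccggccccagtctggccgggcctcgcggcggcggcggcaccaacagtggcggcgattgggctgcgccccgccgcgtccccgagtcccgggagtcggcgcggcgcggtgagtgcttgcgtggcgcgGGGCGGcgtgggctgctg
Cd47: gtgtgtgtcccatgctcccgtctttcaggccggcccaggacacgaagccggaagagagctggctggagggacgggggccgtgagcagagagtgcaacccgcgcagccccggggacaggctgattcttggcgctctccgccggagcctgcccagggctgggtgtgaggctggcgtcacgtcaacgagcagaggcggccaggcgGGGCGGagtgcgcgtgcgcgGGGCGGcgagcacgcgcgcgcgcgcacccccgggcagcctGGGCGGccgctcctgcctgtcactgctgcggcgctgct
Cd274: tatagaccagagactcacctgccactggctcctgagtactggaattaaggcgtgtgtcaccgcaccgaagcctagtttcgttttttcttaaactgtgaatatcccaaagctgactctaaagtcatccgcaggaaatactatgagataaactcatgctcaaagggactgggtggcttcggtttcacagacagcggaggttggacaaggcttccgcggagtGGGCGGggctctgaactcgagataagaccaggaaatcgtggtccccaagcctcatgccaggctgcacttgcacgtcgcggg
Pdcd1: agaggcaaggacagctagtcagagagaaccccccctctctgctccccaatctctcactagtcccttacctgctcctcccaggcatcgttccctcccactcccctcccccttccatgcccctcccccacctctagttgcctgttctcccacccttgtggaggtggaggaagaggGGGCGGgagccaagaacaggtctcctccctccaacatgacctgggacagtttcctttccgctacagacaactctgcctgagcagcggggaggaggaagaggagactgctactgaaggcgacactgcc
Ctla4: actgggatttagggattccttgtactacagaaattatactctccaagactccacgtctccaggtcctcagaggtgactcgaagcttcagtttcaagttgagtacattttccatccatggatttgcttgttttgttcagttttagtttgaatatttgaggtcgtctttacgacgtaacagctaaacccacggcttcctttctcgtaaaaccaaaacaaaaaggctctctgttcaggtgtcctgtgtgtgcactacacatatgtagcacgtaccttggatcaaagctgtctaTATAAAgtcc
The Cd276 window held 4 GC boxes, the Cd47 window 3, and the Cd274 and Pdcd1 windows 1 each, whereas Ctla4 had none and was the only member of these 5 with TATAAA, which lay 40 bases after the start. A GC box was found in 35.66% of 32851 RefSeq promoter windows of this length, 3 or more in 10.71%, and TATAAA in 13.62%. GC content was 78.3% for Cd276 and 74.0% for Cd47, against 52.7% for Cd274, 60.7% for Pdcd1 and 42.0% for Ctla4, with a median of 52.7% over all windows. CpG dinucleotides numbered 39 in Cd276, 35 in Cd47, 15 in Cd274, 5 in Pdcd1 and 8 in Ctla4 (median 7 over all windows). Among the other members with a window, Havcr2, Tigit, Vtcn1 and Pdcd1lg2 had neither box, and their GC content lay between 41.3% and 53.7%. The interferon-stimulated response element core (GAAA, any 2 bases, GAAA) and the gamma-activated site TTCNNNGAA were searched on both strands and occurred in none of the 9 member windows, against 3.44% and 8.3% of all windows. These are matches of letters in a short window and not measurements of binding.

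In length-corrected terms the ligands Cd276 and Cd47 were far above all other members. Median levels over the 34 units were 26.7 CPM per kb of exon for Cd276 and 14.7 for Cd47, followed by Havcr2 at 4.04, Lag3 at 1.14 and Cd274 at 1.13 CPM per kb. Ctla4 (0.262), Pdcd1 (0.150), Tigit (0.0673), Pdcd1lg2 (0.0497) and Vtcn1 (0.0163) were lower still, and Cd3e stood at 0.0755 CPM per kb. Cd276 exceeded Cd47 in 30 of 34 units, Cd47 exceeded Havcr2 in 34, Havcr2 exceeded Lag3 in 33 and Cd274 exceeded Ctla4 in 31. Neighbours in this order that did not separate were Lag3 and Cd274 (Lag3 higher in 19 of 34 units) and Ctla4 and Pdcd1 (Ctla4 higher in 17 of 34). Between the lowest members, Tigit exceeded Pdcd1lg2 in 22 units and Pdcd1lg2 exceeded Vtcn1 in 24.

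**Figure D1:**
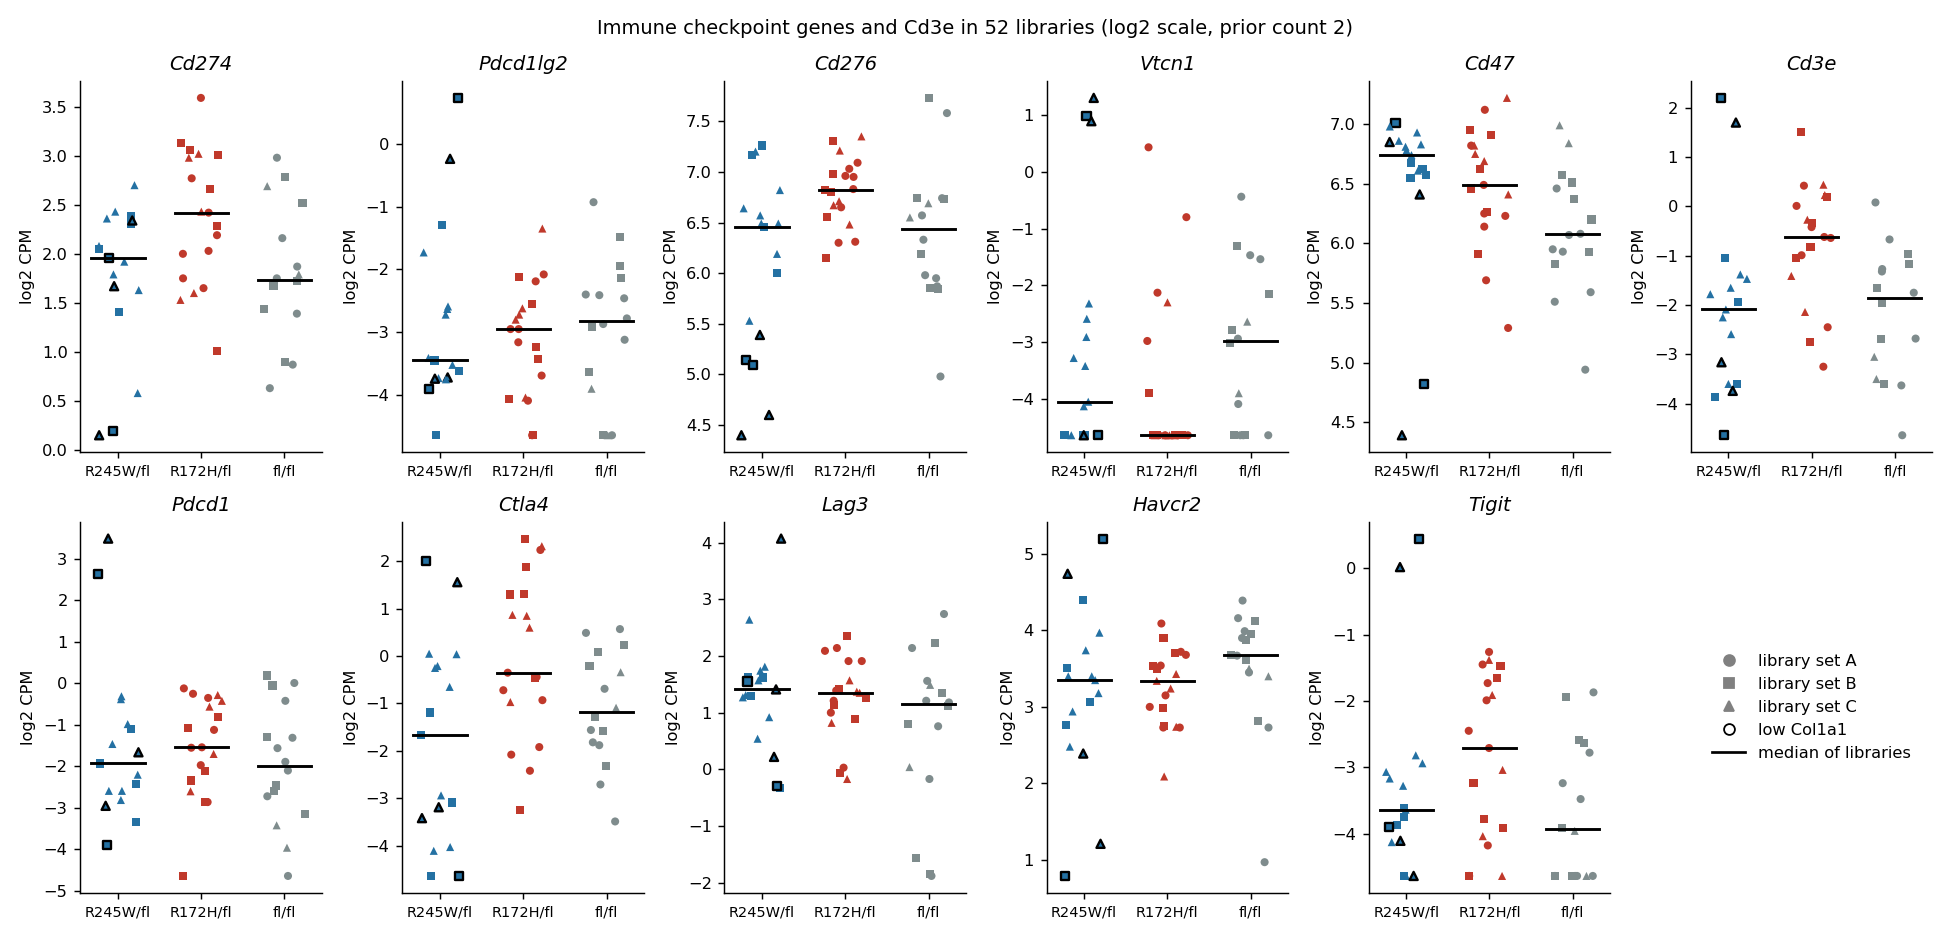
Level of each checkpoint gene and of Cd3e in every library (log2 CPM with a prior count of 2, vertical axes) by genotype (horizontal axes), with marker shapes for library sets, black rims for the 5 libraries of low Col1a1 and bars at the medians of libraries. The genotypes overlap for every gene shown, and the rimmed p53R245W/fl libraries hold the highest values of Cd3e, Pdcd1, Pdcd1lg2, Tigit, Havcr2, Lag3 and Vtcn1.

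Among the ligands, Cd274 (PD-L1; chromosome 19, 29367455 to 29388095, plus strand, GRCm38) was expressed in every library. It ranged from 1.07 to 6.45 CPM (median 3.84) in p53R245W/fl libraries and from 1.98 to 11.97 CPM (median 5.31) in p53R172H/fl libraries, against 1.51 to 7.86 CPM (median 3.29) in p53fl/fl libraries. The top value was in p53R172H/fl library 627 and the lowest in p53R245W/fl library 1835, and all 3 ranges overlapped. Over units the means were 3.92 ± 1.63 CPM in p53R245W/fl (SD, n = 11) and 5.47 ± 2.78 CPM in p53R172H/fl (n = 13), against 3.93 ± 2.03 CPM in p53fl/fl (n = 10). The gene starts 65 bases from Plgrkt on the opposite strand, and an antisense gene (AC119228.1) lies within it. The strand setting of the counting is not given in the sources used here, so reads of such partners may not be separated. Opposite-strand genes also overlap Pdcd1lg2 (A930007I19Rik), Cd276 (Gm10657) and Cd3e (Gm48719). Same-strand genes overlap Ctla4 (the pseudogene Rpl18-ps1) and Cd3e (Gm48720).

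Pdcd1lg2 (PD-L2; chromosome 19, 29410919 to 29471161, plus strand), the neighbour of Cd274, was near the detection floor. It had at most 1.62 CPM (median 0.0514) in p53R245W/fl libraries and 0.353 CPM (median 0.0897) in p53R172H/fl libraries, against 0.484 CPM (median 0.101) in p53fl/fl libraries, and 6 of 52 libraries had no count. Its highest unit was p53R245W/fl unit 1831 (1.21 CPM), whose 2 libraries had 61 and 48 counts, against at most 0.203 CPM in a p53R172H/fl unit and 0.484 CPM in a p53fl/fl unit. The PD-1 ligands had a rho of 0.288 with each other over 34 units, although they lie side by side.

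Cd276 (B7-H3; chromosome 9, 58524298 to 58555437, minus strand) was the most abundant member per kb of exon over all units, while in CPM Cd47 had the higher median in p53R245W/fl libraries. It ranged from 21.0 to 153.4 CPM (median 88.2) in p53R245W/fl libraries and from 70.7 to 163.5 CPM (median 112.7) in p53R172H/fl libraries, against 31.5 to 212.6 CPM (median 87.0) in p53fl/fl libraries. The p53R172H/fl libraries had the narrowest range, and the lowest 5 p53R245W/fl libraries were those of low Col1a1. Over units the means were 79.9 ± 40.4 CPM in p53R245W/fl (SD, n = 11) and 115.3 ± 25.5 CPM in p53R172H/fl (n = 13), against 90.5 ± 46.1 CPM in p53fl/fl (n = 10).

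Cd47 (chromosome 16, 49800533 to 49915010, plus strand), the phagocytosis checkpoint, was the steadiest member, with an SD of 0.60 log2 units over the 34 units. It ranged from 20.9 to 129.0 CPM (median 106.7) in p53R245W/fl libraries and from 39.2 to 149.4 CPM (median 89.9) in p53R172H/fl libraries, against 30.6 to 126.8 CPM (median 67.4) in p53fl/fl libraries. The lowest p53R245W/fl unit was 1835 (24.5 CPM), and its libraries lay below all p53R172H/fl and p53fl/fl libraries.

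Vtcn1 (B7-H4; chromosome 3, 100825459 to 100896922, plus strand), known from epithelial tissues, had no count in 25 of 52 libraries. Its highest units were p53R245W/fl unit 1835 (2.18 CPM; 72 and 136 counts in its libraries) and p53R245W/fl unit 1580 (1.82 CPM, 105 counts), then p53R172H/fl unit 5798 (1.304 CPM, 70 counts), and no p53fl/fl library exceeded 0.697 CPM. Unit 1835 was also the highest of 34 in the epithelial genes Krt14 (33.5 CPM), Krt8 (10.4 CPM), Krt18 (53.5 CPM), Epcam (30.2 CPM) and Cdh1 (23.4 CPM). It was not in Krt5 (0.259 CPM, rank 8) or Trp63 (2.64 CPM, rank 9). The 7 epithelial markers summed to 2.13 to 154.0 CPM (median 6.64) in p53R245W/fl units and 1.24 to 36.3 CPM (median 6.36) in p53R172H/fl units, against 2.74 to 16.8 CPM (median 6.60) in p53fl/fl units. The sum was 4.62 CPM in unit 1580 (rank 25 from the highest of 34) and 6.05 CPM in unit 5798 (rank 22), although single markers ranked high there, with Krt8 at rank 3 in unit 1580 (2.23 CPM) and Krt5 at rank 4 in unit 5798 (0.615 CPM). The part of these markers in the Vtcn1 values was not tested.

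Among the receptors, Pdcd1 (PD-1; chromosome 1, 94038305 to 94052553, minus strand) was sparse in all 3 genotypes. It ranged from 0.0268 to 11.2 CPM (median 0.223) in p53R245W/fl libraries and from 0 to 0.880 CPM (median 0.304) in p53R172H/fl libraries, against 0 to 1.104 CPM (median 0.211) in p53fl/fl libraries. The 2 high libraries were the matched p53R245W/fl libraries 494 (234 counts, 6.2 CPM) and 1831 (667 counts, 11.2 CPM). Their unit stood 30.1 times above the median unit. The other p53R245W/fl libraries lay within the range of the p53fl/fl libraries.

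Ctla4 (CTLA-4; chromosome 1, 60887000 to 60915832, plus strand), which competes with CD28 for the B7 ligands, was the most variable member, with an SD of 1.76 log2 units. It ranged from 0 to 3.98 CPM (median 0.274) in p53R245W/fl libraries and from 0.0658 to 5.55 CPM (median 0.747) in p53R172H/fl libraries, against 0.0492 to 1.44 CPM (median 0.398) in p53fl/fl libraries. The highest unit was p53R172H/fl unit 1241 (5.25 CPM), 8.61 times the median unit, and the highest p53R245W/fl unit was 1831 (3.45 CPM). The top of the p53fl/fl range was far lower than either.

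Lag3 (LAG-3; chromosome 6, 124904361 to 124911705, minus strand), which binds MHC class II, ranged from 0.755 to 16.8 CPM (median 2.61) in p53R245W/fl libraries and from 0.850 to 5.09 CPM (median 2.51) in p53R172H/fl libraries, against 0.232 to 6.66 CPM (median 2.18) in p53fl/fl libraries. The top value, 6.99 times the median unit, came from p53R245W/fl unit 1580, in which Cd3e stood at 0.0346 CPM (2 counts), Cd3d at 0.121 CPM, Cd4 at 0.537 CPM (the lowest of 34) and Trbc2 at 0.0520 CPM. The T cell receptor gene Trac had 38.96 CPM in the same unit, the highest of 34. Cd2 (1.02 CPM) ranked 6 and Lck (2.25 CPM) ranked 9 from the highest there. The other T cell markers ranked from 23 (Cd3g) to 34 (Cd4 and Cd5). Of the 8 dendritic cell markers, which summed to 64.6 CPM there, Zbtb46 alone made 54.2 CPM, the highest of 34. From the highest, Ccr7 ranked 13, Cd209a 14, Flt3 17, Clec9a 26, Xcr1 28, Siglech 29 and Itgax 32. The next gene upstream on the same strand, Ptms, ends 1976 bases before Lag3 begins and had 157.4 CPM there, and over 34 units Lag3 and Ptms had a rho of 0.161.

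Havcr2 (TIM-3; chromosome 11, 46454935 to 46481255, plus strand) was the most abundant receptor. It ranged from 1.69 to 36.7 CPM (median 10.1) in p53R245W/fl libraries and from 4.23 to 16.98 CPM (median 10.1) in p53R172H/fl libraries, against 1.92 to 20.9 CPM (median 12.7) in p53fl/fl libraries. Its p53R245W/fl extremes were the low-Col1a1 units 1831 and 1835. Tigit (chromosome 16, 43648867 to 43664146, minus strand), which competes with CD226 for nectin ligands, had no count in 13 of 52 libraries. It reached 1.33 CPM (median 0.0403) in p53R245W/fl libraries and 0.377 CPM (median 0.113) in p53R172H/fl libraries, against 0.234 CPM (median 0.0252) in p53fl/fl libraries. Its top pair of libraries was again unit 1831.

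Over units, the variance of the members that lay between genotypes was small: 18.8% for Cd276, 14.8% for Ctla4, 14.3% for Cd47, 10.1% for Cd274, 9.6% for Tigit, 8.6% for Lag3 and 1.9% to 3.0% for Vtcn1, Pdcd1, Pdcd1lg2 and Havcr2. For Trp53 it was 73.0% and for Cd3e 20.5%. Matched libraries lay much closer together than tumours did for the abundant members: the median absolute difference within the 18 pairs was 0.13 log2 units for Cd274, 0.15 for Cd276, 0.20 for Cd47 and Lag3 and 0.27 for Havcr2. For the sparse receptors it was 0.80 for Ctla4 and 0.92 for Pdcd1.

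The genotype comparisons asked whether checkpoint expression differed with the Trp53 alleles. Of the 10 members 7 could be tested, since Pdcd1lg2, Tigit and Vtcn1 did not pass the filter on low counts. The test was edgeR's quasi-likelihood F test on all 52 libraries with Benjamini-Hochberg adjustment over 18882 genes, called at an adjusted p under 0.05, and a paired fit (limma voom with library set as covariate and correlated matched libraries) was run beside it.

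In p53R172H/fl tumours against p53fl/fl tumours, none of the 7 tested members was called by edgeR (2 had an unadjusted p under 0.05), at a background of 3.75% of all genes called. Ctla4 had a log2 fold change of 1.57 ± 0.625 (SE; adjusted p = 0.146) and Cd274 one of 0.57 ± 0.24 (adjusted p = 0.178). Cd47 had 0.36 ± 0.18 (adjusted p = 0.275), Cd276 0.29 ± 0.217 (adjusted p = 0.515) and Havcr2 −0.34 ± 0.26 (adjusted p = 0.524), and Pdcd1 and Lag3 both had 0.19. Cd3e had 1.44 ± 0.605 (adjusted p = 0.174) in the same comparison. The paired fit called no member either, at a background of 0.0106%, with 0.81 for Ctla4 and 0.51 for Cd274.

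In p53R245W/fl tumours against p53fl/fl tumours, edgeR called 1 of 7 members, Pdcd1, at a background of 17.8% of all genes called and 10% called higher. Pdcd1 rose by 1.82 ± 0.662 on the log2 scale (adjusted p = 0.0469), and this rested on unit 1831: without it the value was −0.39 (adjusted p = 0.649), and without the libraries of low Col1a1 it was −0.21 (adjusted p = 0.838). Leaving out the other units in turn gave 1.68 to 2.03, with the call lost for 9 of them. The paired fit gave 0.66 ± 1.07 (adjusted p = 0.878), and called no member at a background of 0.0159%. The value was 1.37 within set B (adjusted p = 0.692) and 4.97 within set C (adjusted p = 0.998), where p53fl/fl had 2 libraries, while set A held no p53R245W/fl library. Cd47 had 0.43 ± 0.185 (adjusted p = 0.0995) and was called without the low-Col1a1 libraries (0.56, adjusted p = 0.022, at a background of 11.8% of all genes called), whereas it had 0.24 within set B and −0.25 within set C. Lag3 had 0.57 ± 0.368 (adjusted p = 0.296), Ctla4 0.29 ± 0.622 (adjusted p = 0.795), Cd276 −0.23 ± 0.222 (adjusted p = 0.517), Havcr2 −0.09 ± 0.268 (adjusted p = 0.855) and Cd274 −0.04 ± 0.244 (adjusted p = 0.938).

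In p53R245W/fl tumours against p53R172H/fl tumours, edgeR called Pdcd1 higher and Cd274 lower, 2 of 7 members at a background of 30.9% of all genes called (18.2% higher and 12.7% lower). Cd274 fell by 0.60 on the log2 scale (SE 0.236, adjusted p = 0.0455). It was −0.83 within set B and −0.49 within set C, neither called (adjusted p = 0.245 and 0.524), and −0.48 ± 0.29 in the paired fit (adjusted p = 0.389). Leaving out a unit moved Cd274 between −0.70 and −0.47 and ended the call for 13 of 34 units, among them 1835 (−0.47, adjusted p = 0.103). Pdcd1 rose by 1.63 ± 0.621 (adjusted p = 0.0400), again through unit 1831: it was −0.58 without that unit (adjusted p = 0.393) and −0.10 in the paired fit. Within set B Pdcd1 had 2.33 (adjusted p = 0.24) and within set C 1.36 (adjusted p = 0.552).

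For the other members of that comparison, Cd276 had −0.51 ± 0.214 (adjusted p = 0.0619), and −0.19 (adjusted p = 0.478) without the low-Col1a1 libraries. Ctla4 had −1.28 ± 0.606 (adjusted p = 0.0989), and it was called at −2.02 without those libraries (adjusted p = 0.0152, at a background of 22.5% of all genes called) and at −2.31 without unit 1831 alone (adjusted p = 0.00402, where 5165 of 18948 genes were called). Beside it, Cd3e had −0.32 (adjusted p = 0.711) over all libraries and −1.86 (adjusted p = 0.00796) without the low-Col1a1 libraries. With Cd3e as a covariate over all libraries, Ctla4 had −1.24 (adjusted p = 0.0765). Lag3 had 0.38 ± 0.35 (adjusted p = 0.427), and −0.04 without unit 1580, Havcr2 had 0.25 ± 0.256 (adjusted p = 0.488) and Cd47 0.07 ± 0.176 (adjusted p = 0.789). The paired fit called no member, at a background of 1.55%. The 3 members under the filter were not called when the filter was dropped, the largest value being 1.64 for Vtcn1 in p53R245W/fl against p53R172H/fl. The background of called genes was then 30.7% in that comparison, 19% in p53R245W/fl against p53fl/fl and 4.72% in p53R172H/fl against p53fl/fl. In set C the column names give lane L003 for all p53R172H/fl and p53fl/fl libraries and for p53R245W/fl library 1580, and other lanes for the remaining 10 p53R245W/fl libraries, so lane and genotype overlap in L003 alone.

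**Figure D2:**
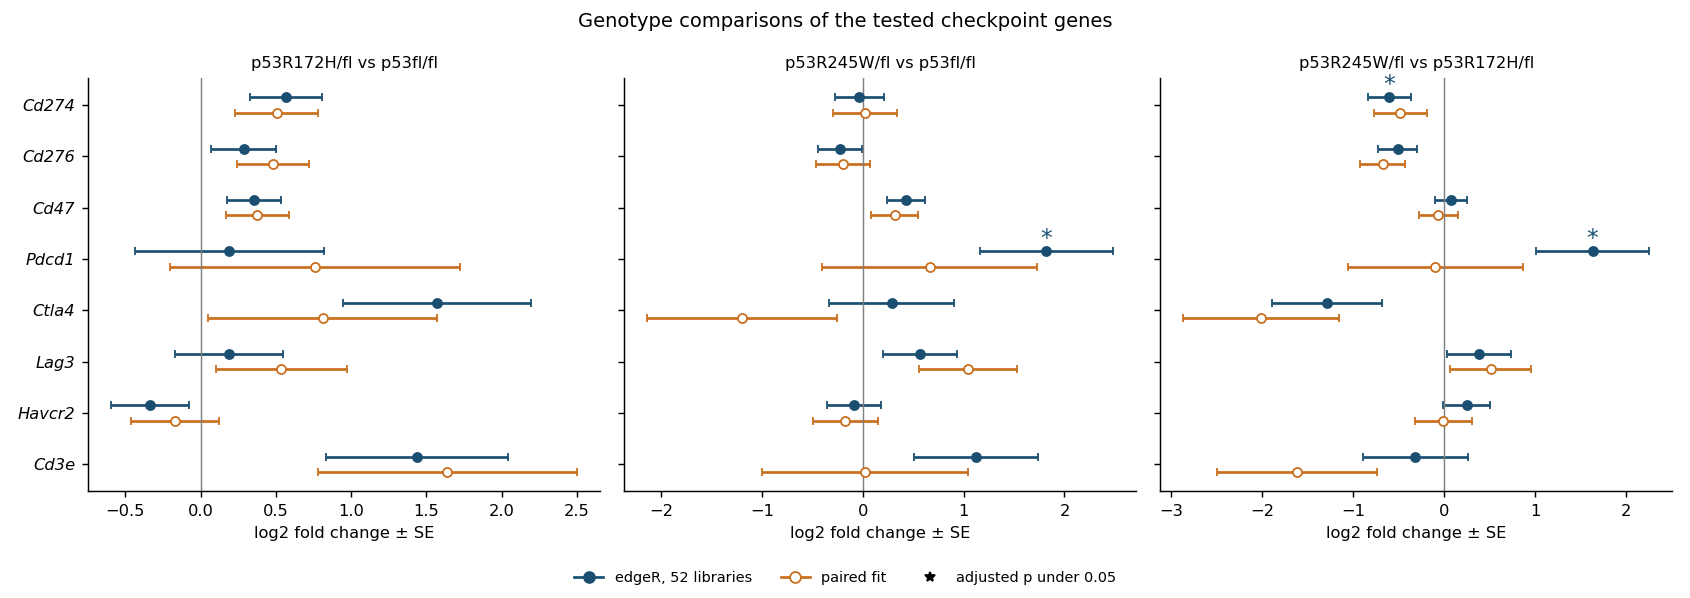
Log2 fold change ± SE (horizontal axes) of the 7 tested checkpoint genes and Cd3e (vertical axis) in the 3 genotype comparisons, from edgeR on 52 libraries (filled) and from the paired fit (open), with stars at an adjusted p under 0.05. Stars stand at Pdcd1 in both p53R245W/fl comparisons and at Cd274 in p53R245W/fl against p53R172H/fl, all from edgeR, and the paired fit has none.

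**Figure D3:**
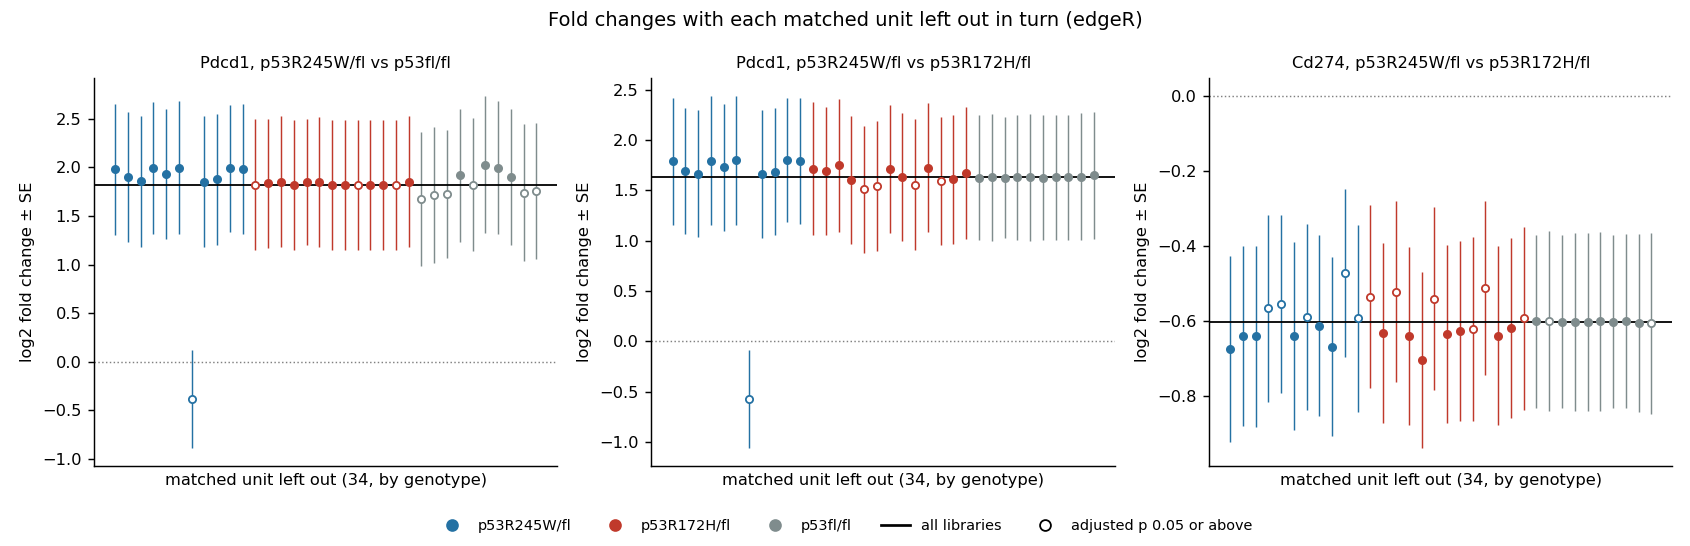
Log2 fold change ± SE (vertical axes) of the 3 called results when each of 34 units is left out (horizontal axes, coloured by the genotype of the unit), with open circles at an adjusted p of 0.05 or above and a black line at the value over all libraries. Pdcd1 drops to −0.39 and −0.58 without 1 p53R245W/fl unit, whereas Cd274 stays between −0.70 and −0.47.

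Beside these values, markers of other cells moved with genotype or with single units. The 16 T cell markers summed to 7.97 to 93.0 CPM (median 20.9) in p53R245W/fl units and 10.7 to 49.4 CPM (median 22.5) in p53R172H/fl units, against 7.63 to 56.9 CPM (median 24.5) in p53fl/fl units. Unit 1831 held the highest value of 34 for the T cell sum, for the 7 NK cell markers in the table (31.1 CPM) and for the 12 macrophage markers (6771 CPM), as it did for Pdcd1, Pdcd1lg2, Havcr2 and Tigit. Of its 8 osteoblast markers, Col1a1, Sp7 (0.119 CPM), Bglap (0.0635 CPM), Ibsp (2.39 CPM) and Alpl (0.838 CPM) were the lowest of 34, Col1a2 and Runx2 (18.6 CPM) were the second lowest, and Spp1 (1232 CPM) was in the middle of the range. The osteoblast sum was lowest in unit 1835 (3267 CPM) and next in unit 1831 (3318 CPM). Unit 1835 had the lowest macrophage sum (272.7 CPM) and the lowest NK sum (0.205 CPM), together with the lowest Cd274 and Cd47. The 6 skeletal muscle markers had a median sum of 393.9 CPM in p53R245W/fl units and 947.3 CPM in p53R172H/fl units. In p53fl/fl units it was 193.8 CPM. By edgeR 3 of the 6 rose in p53R172H/fl against p53fl/fl, at a background of 1.46% of all genes called higher. The paired fit called 0.0106% of all genes in that comparison. The part of these markers in the checkpoint results was not tested.

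Relation to Cd3e was taken over the 34 units as Spearman's rho with a permutation p (100000 shuffles, two-sided), adjusted over 18881 genes. Cd3e ranged from 0 to 4.56 CPM (median 0.195) in p53R245W/fl libraries and from 0.0652 to 2.79 CPM (median 0.610) in p53R172H/fl libraries, against 0 to 1.02 CPM (median 0.238) in p53fl/fl libraries. Pdcd1 (rho 0.642, Pearson's r 0.723, permutation p = 7e-05, adjusted p = 0.0161) and Ctla4 (rho 0.587, r 0.625, permutation p = 0.0003, adjusted p = 0.0335) followed Cd3e, 2 of 7 tested members at a background of 1.09% of all genes called positive. Cd274 had a rho of 0.447 (adjusted p = 0.18), Lag3 0.285, Cd276 0.248, Havcr2 0.244 and Cd47 0.128, none called. Of the untested members, Tigit had 0.580, Pdcd1lg2 0.365 and Vtcn1 −0.202, with no test.

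Without the 2 units farthest from the median of Cd3e (1831 and 1512), Pdcd1 had a rho of 0.570 (adjusted p = 0.0438) and Ctla4 0.552 (adjusted p = 0.0481), at a background of 1.72%. Without the units of low Col1a1 neither was called, with 0.593 (adjusted p = 0.0639) for Pdcd1 and 0.478 (adjusted p = 0.161) for Ctla4 (Pearson's r of Pdcd1 0.642, adjusted p = 0.0238), at a background of 0.588%. Within genotypes, Pdcd1 had 0.682 in p53R245W/fl, 0.632 in p53R172H/fl and 0.515 in p53fl/fl units, and Ctla4 had 0.709 in p53R245W/fl, 0.401 in p53R172H/fl and 0.467 in p53fl/fl units. None of these was called over 10 to 13 units, at a background of 0% of all genes. By library set, Pdcd1 had 0.618 over the 16 units with a set A library and 0.668 over the 18 units with a set C library, and Ctla4 had 0.435 and 0.690, none called at backgrounds of 0% and 0.117%. With the mean of the T cell list in place of Cd3e, Pdcd1 had 0.743 and Ctla4 0.706 (adjusted p = 0.0031 for both, at a background of 1.73%), and Tigit 0.644 with no test; by Pearson's r, Havcr2 (0.657, adjusted p = 0.00194) and Cd274 (0.524, adjusted p = 0.0398) passed 0.05 as well. The 2 called receptors had a rho of 0.536 with each other, and Pdcd1 and Tigit had 0.558.

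**Figure D4:**
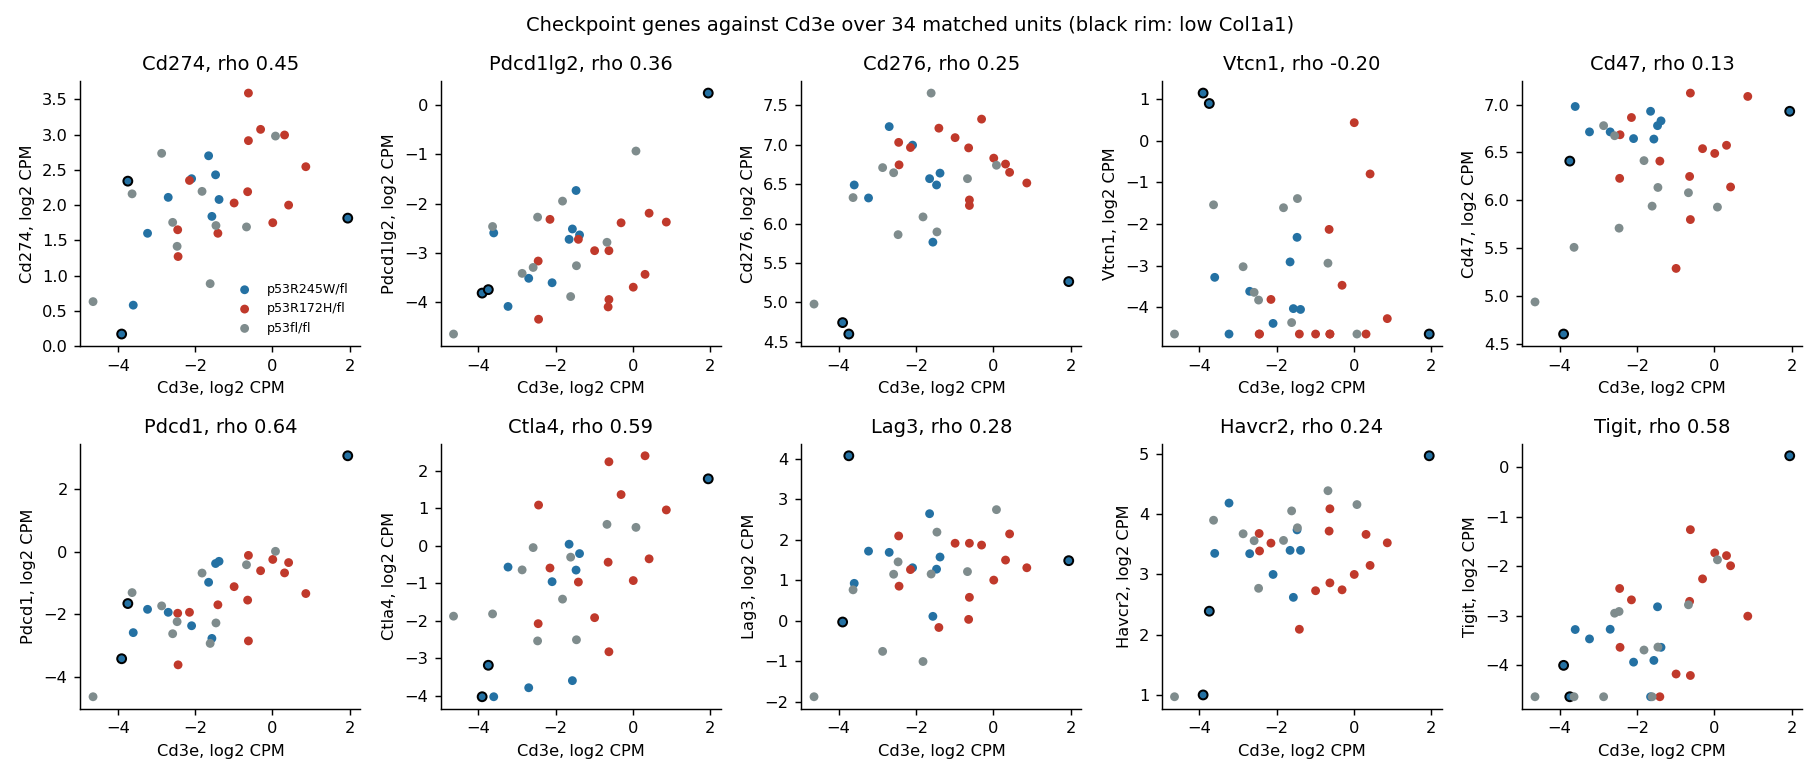
Log2 CPM of each checkpoint gene (vertical axes) against that of Cd3e (horizontal axes) over 34 units coloured by genotype, with black rims on units of low Col1a1 and rho in each title. Pdcd1, Ctla4 and Tigit rise with Cd3e (rho 0.64, 0.59 and 0.58), while Cd47 and Vtcn1 do not (0.13 and −0.20).

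Counts of the receptors were also set against those of Cd3e in the same unit, over the 26 units with at least 10 Cd3e counts. Per Cd3e count, Pdcd1 had 0.156 to 2.48 counts (median 0.835), Ctla4 0.147 to 14 (median 1.37) and Tigit 0 to 0.80 (median 0.184). Lag3 had 0.73 to 22.2 (median 6.32) and Havcr2 5.99 to 70.0 (median 29.2). The median Pdcd1 ratio was 1.67 in 7 p53R245W/fl units and 0.688 in 12 p53R172H/fl units, against 0.951 in 7 p53fl/fl units, with overlapping ranges. These ratios are not corrected for transcript length, and units with fewer than 10 Cd3e counts are missing from them.

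Havcr2 followed the macrophage markers. Its rho with the mean of the 12 markers was 0.890 over 34 units (r 0.938, permutation p = 1e-05, the smallest that the shuffles can give; adjusted p = 0.00117), the only 1 of 7 tested members called, at a background of 2.64% of all genes called positive. It stayed called without the 2 farthest units (0.868; background 1.39%), without the units of low Col1a1 (0.858; background 1.53%) and within the units of set A (0.829, adjusted p = 0.028; background 0.736%) and of set C (0.938, adjusted p = 0.0105; background 0.493%). With that mean as a covariate the Havcr2 differences between genotypes were −0.11 for p53R245W/fl against p53R172H/fl, −0.24 for p53R245W/fl against p53fl/fl and −0.13 for p53R172H/fl against p53fl/fl, none called. Pdcd1 and Ctla4 had rho values of 0.447 and 0.465 with the macrophage mean, neither called by rho. By Pearson's r, Pdcd1 (0.659, permutation test, adjusted p = 0.00248), Cd47 (0.547, adjusted p = 0.0246) and Ctla4 (0.501, adjusted p = 0.0327) also passed 0.05. None of the 3 did without the 2 farthest units (r 0.552, 0.158 and 0.423).

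Cd274 followed the interferon gamma signalling and response list, of which 14 genes were in the table (among them Irf1 and Cxcl9), with a rho of 0.705 (r 0.773, adjusted p = 0.0029). Havcr2 was also called, at 0.549 (adjusted p = 0.0417), 2 of 7 members at a background of 1.81% of all genes called positive. Cd47 had 0.506 (adjusted p = 0.0876), Pdcd1 0.525 and Ctla4 0.523 (adjusted p = 0.069 for both), and these 3 passed 0.05 by Pearson's r (0.651, adjusted p = 0.00244 for Cd47; 0.583, adjusted p = 0.0195 for Pdcd1; 0.559, adjusted p = 0.018 for Ctla4). Cd274 had 0.649 (adjusted p = 0.0166) without the 2 farthest units and 0.720 (adjusted p = 0.00378) without the units of low Col1a1, where Havcr2 was not called (0.460 and 0.472), at backgrounds of 0.906% and 1.15%. Within the units of set A and of set C, Cd274 had 0.721 and 0.639, not called by rho over 16 and 18 units (adjusted p = 0.148 and 0.246; Pearson's r in set C 0.769, adjusted p = 0.0426), at backgrounds of 0.45% and 0.09%. With the mean of the 8 osteoblast markers no tested member was called by rho, at a background of 1.6% of all genes called positive: Cd47 had 0.415 (adjusted p = 0.169) and Cd276 0.258, and Cd276 had a Pearson's r of 0.630 that was 0.145 without the units of low Col1a1.

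**Figure D5:**
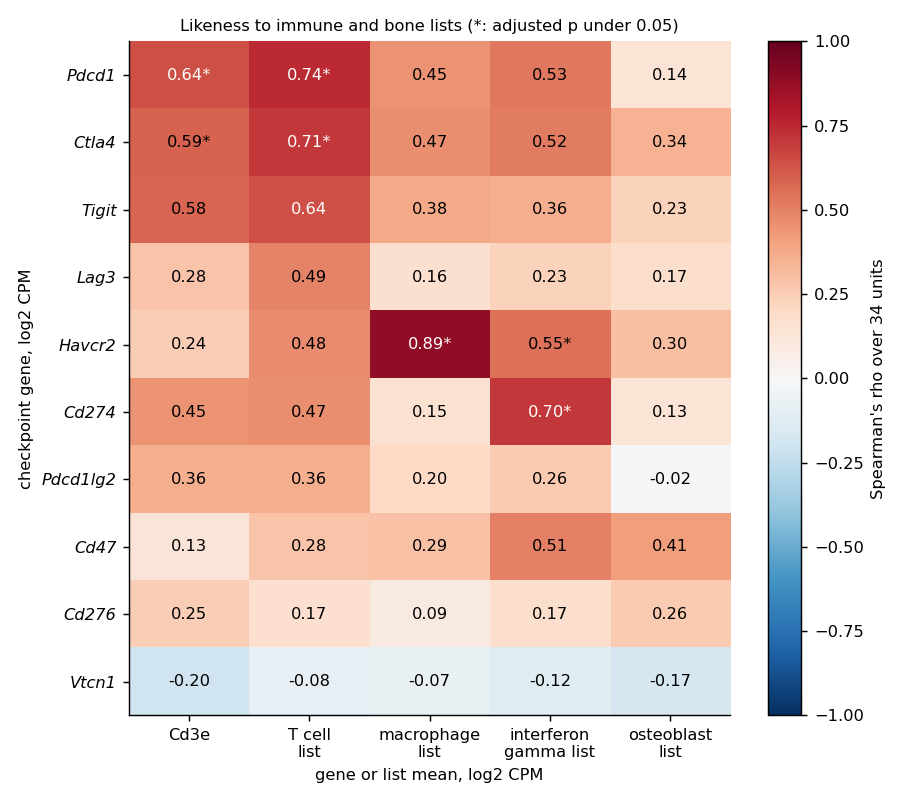
Spearman's rho over 34 units of each checkpoint gene (rows) with Cd3e and with the means of 4 gene lists (columns), coloured from −1 to 1, with stars at an adjusted p under 0.05. Stars stand at Pdcd1 and Ctla4 for Cd3e and the T cell list, at Havcr2 for the macrophage list, and at Cd274 and Havcr2 for the interferon gamma list.

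The genes whose pattern over 34 units was most like each member, given as rho with no test and over tumours that share depth and tissue content, were found among 13162 genes with a mean of at least 1 CPM. For Cd274 they were Oasl2 (0.782), Xaf1 (0.780) and Parp14 (0.770), all known as interferon-induced genes. For Pdcd1 they were the chemokine receptor gene Cxcr6 (0.800), Gimap3 (0.771) and the T cell receptor gene Trbc2 (0.753). For Ctla4 they were Ctsw (0.755), which encodes a protease of cytotoxic lymphocytes, Grik2 (0.705) and Slc28a2 (0.704). For Havcr2 they were the complement gene C1qa (0.908), Hcls1 (0.896) and Igsf6 (0.878), of which C1qa is itself in the macrophage list. Lag3 was most like Arl5c (0.696), Cd101 (0.675) and Apobec3 (0.636). Cd276 was most like Pcdh12 (0.734), Ube4a (0.730) and Adpgk (0.715), and Cd47 like Fth1 (0.760), B3galt5 (0.721) and Htatip2 (0.706). Among the members under the filter, Tigit was most like Tbc1d9 (0.752), Pdcd1lg2 like the B cell gene Cd22 (0.628) and Vtcn1 like the matrix gene Smoc2 (0.728). Of partners, Ctla4 and Foxp3, the factor of regulatory T cells, had 0.542, Havcr2 and its ligand gene Lgals9 0.488, Lag3 and Cd4 0.385, Tigit and Cd226 0.352, and Cd47 and its receptor gene Sirpa 0.171.

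The partners of the checkpoint genes were read from lists of ligands, receptors and signalling genes. In p53R245W/fl against p53fl/fl, where 10% of all genes were called higher, 4 of 7 tested LAG-3 ligand and MHC class II genes rose by edgeR: the class II transactivator Ciita (1.89, adjusted p = 0.0108), H2-Eb1 (1.29, adjusted p = 0.0166), H2-Aa (1.26, adjusted p = 0.0192) and H2-Ab1 (1.22, adjusted p = 0.0252). Their list had a median of 1.22, against 0.04 over all genes. Of 9 tested TNF family costimulators 4 rose: Tnfsf18 (3.23), Tnfrsf4 (1.54), Cd27 (2.17) and Tnfrsf18 (1.45), as did 2 of 8 B7 and CD28 family partners, Vsig4 (2.77) and Rgmb (0.54), 1 of 7 TIGIT axis partners, the ligand gene Nectin2 (0.94), and 1 of 10 other inhibitory receptors, Klrc1 (2.20). The last 2 shares are near that background. Without the libraries of low Col1a1 none of these genes was called, and H2-Ab1 had 0.12, Nectin2 −0.23 and Tnfsf18 0.27. The paired fit called none of the list genes in any comparison. The summed MHC class II list had its highest value of 34 in unit 1831 (4160 CPM), against a p53R245W/fl median of 1142 CPM, a p53R172H/fl median of 815.1 CPM and a p53fl/fl median of 790.7 CPM.

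In p53R245W/fl against p53R172H/fl, where 18.2% of all genes were called higher and 12.7% lower, 6 of 7 MHC class II and LAG-3 ligand genes rose (H2-Ab1 1.304, H2-DMa 1.16, Ciita 1.51, H2-Aa 1.04), none of them without the low-Col1a1 libraries. For CD47, 3 of 6 partners rose: Thbs2, a thrombospondin ligand (1.40, adjusted p = 0.0135), Qpct, whose enzyme family modifies the SIRPα-binding end of CD47 (1.64, adjusted p = 0.0196), and Calr, the phagocytic signal calreticulin (0.41, adjusted p = 0.0459). Calr (−0.59, adjusted p = 0.0277) and Qpct (−1.89, adjusted p = 0.0431) fell in p53R172H/fl against p53fl/fl, the only genes of the partner lists called there. In that comparison 2.29% of all genes were called lower and 3.75% in either direction. The partner lists had 86 entries in the table, so these 2 calls are near that background. Without the low-Col1a1 libraries Qpct (1.93) and Thbs2 (1.16) were still called in p53R245W/fl against p53R172H/fl and Calr was not (0.30). Calr (−0.59) and Qpct (−1.88) were still called in p53R172H/fl against p53fl/fl, at a background of 6.1% of all genes called. The low-Col1a1 libraries are all p53R245W/fl, so neither group of that comparison lost a library. Of the interferon gamma list 14 genes were in the table. Among them Nlrc5, the class I transactivator, fell by 1.12 in p53R245W/fl against p53R172H/fl (adjusted p = 0.00272) and had −0.94 without the low-Col1a1 libraries. Jak1 rose by 0.32 (adjusted p = 0.0366). Also called were 2 of 8 B7 and CD28 family partners, Vsig4 (1.98) and Rgmb (0.55), 1 of 7 TIGIT axis partners, Nectin2 (1.003), 1 of 9 TNF family costimulators, Tnfsf18 (2.87), and 1 of 6 neighbours of Cd274 on chromosome 19, Ermp1 (0.52). These shares are near or below the 18.2% of all genes called higher. Without the low-Col1a1 libraries Ermp1 (0.57) was still called, whereas Vsig4 (0.51), Rgmb (0.03), Nectin2 (−0.17) and Tnfsf18 (−0.10) were not. Higher calls there, besides those named, were Tnfrsf9, Nt5e and Ifngr2, and lower calls were Tnfrsf4, Cd27, Icos and Eomes, at a background of 22.5% of all genes called. No gene of the TIM-3 ligand list or of the exhaustion and regulatory T cell list was called in any of the 3 comparisons over all libraries.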

How the data were processed

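The deposited table held raw read counts per gene for 52 libraries, made by the authors from stranded paired-end mRNA-Seq of flash-frozen tumours, per the labels' protocols. STAR and GRCm38 are named in the submitters' processing notes; for the counting program, its strand setting and all versions, the sources used here give nothing. Ensembl identifiers were matched to symbols and positions in GENCODE M21 (20668 of 20730 matched), and promoter windows came from RefSeq on GRCm38.p6 (9 of 10 members; all but Lag3).

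The 10 members, the partner and marker lists and the tests were chosen with earlier results of these data known. The text names all 10 members and Cd3e, up to 4 called genes of each partner list by smallest p (further called list genes were added after their values were seen), and the 3 genes of highest rho per member among tested genes with a mean of at least 1 CPM (1 for the 3 members under the filter). Fgl1, Clec4g, Havcr1, Cd70, Cd40lg, Klrg1, Ifng, Klra8 and Ly6g were not matched to a row of the table.

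The main test was edgeR 4.0.16 (R 4.3.3; TMM, filterByExpr with a minimum count of 10, glmQLFit and glmQLFTest) on 52 libraries without covariates, adjusted by Benjamini-Hochberg over 18882 genes and called under 0.05. CPM used the TMM library sizes, and log2 CPM a prior count of 2. The paired fit was limma 3.58.1 voom with library set as covariate and duplicateCorrelation over the matched units (correlation 0.857). DESeq2 1.42.0, other factors, filters, covariates and subsets were alternatives; the paired fit without low-Col1a1 libraries (under 13 log2 CPM) and the list means other than that of T cells were added after seeing the data. Correlations were over unit means of log2 CPM. The floor of 3 counts covers counting error only, whereas each SE comes from its fit and includes the spread between libraries. Each SD is over units. The edgeR fit, the paired fit and the correlation routine were tested on simulated data. Where nothing says that libraries came from separate mice, p-values measure only the spread between libraries.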

Additional observations from a re-analysis of the deposited data

How the results depend on the processing

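No paired analysis was possible because the library numbers are not shared between genotypes; the paired fit given beside each result pairs matched libraries of 1 genotype. In p53R172H/fl against p53fl/fl the count of called members was 0 under all settings except 1 with the macrophage mean as covariate (Ctla4, 1.74, adjusted p = 0.0386). That setting called 832 of all 18882 tested genes. In p53R245W/fl against p53fl/fl, where edgeR called 1, the count was 0 with DESeq2, a minimum count of 50, the set, Cd3e or macrophage covariate, both paired fits, matched libraries summed, 2 groups alone, without set B and within sets B and C, and 0 to 2 leaving out a unit. In p53R245W/fl against p53R172H/fl, where edgeR called 2, it was 0 with the set covariate, both paired fits, matched libraries summed, without set B and within sets B and C, 1 without low-Col1a1 libraries and with the Cd3e covariate, 3 with RLE factors and with 2 groups alone (Cd276 added), 3 with the macrophage covariate (Cd274, Cd276 and Ctla4, all lower), and 0 to 3 leaving out a unit. DESeq2 called Cd274 and Cd276 there, as did a minimum count of 50, which left 6 members to test. Of all genes, DESeq2 called 33% in that comparison, the Cd3e covariate 26.4%, the set covariate 22.8% and summed libraries 15.2%. The macrophage covariate called 5938 of 18882 genes, RLE factors 5731 of 18882 and 2 groups alone 5529 of 17931. A minimum count of 50 called 4801 of 15062 genes, the fit without set B 2726 of 18959 and the paired fit without low-Col1a1 libraries 17 of 19130. Within set B 615 of 18207 genes were called, and within set C 3 of 20220. For p53R245W/fl against p53fl/fl the shares were 20% with DESeq2, 17.1% with the Cd3e covariate, 9.04% with summed libraries and 5.32% with the set covariate. Within set B 4 of 18207 genes were called there, and within set C 0 of 20220. The macrophage covariate called 3397 of 18882 genes there, a minimum count of 50 called 2786 of 15062 and 2 groups alone 2472 of 17601. The fit without set B called 2134 of 18959 and the paired fit without low-Col1a1 libraries 11 of 19130. The cause of the changes in the counts of called members was not tested. Of the fold changes of members and Cd3e, 286 kept their direction and side of the threshold under settings other than leaving out a unit, 26 lost a call or 13 gained one, and 37 changed sign.

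Changes of sign of fold changes in p53R245W/fl against p53fl/fl were as follows. Cd274 had 0.023 in the paired fit, 0.003 with matched libraries summed, 0.002 without set B, 0.098 without low-Col1a1 libraries, 0.015 with the macrophage covariate and 0.172 in the paired fit without those libraries. Cd276 had 0.097 without low-Col1a1 libraries and 0.252 in the paired fit without them. Ctla4 had −0.066 with the set covariate, −1.197 in the paired fit, −0.45 without low-Col1a1 libraries, −0.512 with the Cd3e covariate, −0.388 with the macrophage covariate and −1.138 in the paired fit without low-Col1a1 libraries. Cd3e had −0.413 without low-Col1a1 libraries, −0.001 in the paired fit without them and −0.049 with itself as covariate. Cd47 had −0.248 within set C, Havcr2 0.073 with the set covariate and 0.101 within set B, and Pdcd1 −0.21 without low-Col1a1 libraries. Leaving out a unit gave −0.142 to 0.121 for Cd274, −0.413 to 0.034 for Cd276, −0.737 to 0.474 for Ctla4, −0.451 to 0.062 for Havcr2 and −0.386 to 2.028 for Pdcd1.

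In p53R245W/fl against p53R172H/fl, Cd47 had −0.165 with the set covariate, −0.063 in the paired fit, −0.076 within set B, −0.121 within set C and −0.009 with the macrophage covariate. Havcr2 had −0.008 in the paired fit and −0.112 with the macrophage covariate, and Lag3 −0.23 within set B. Pdcd1 had −0.097 in the paired fit, −0.41 without low-Col1a1 libraries, −0.114 with the macrophage covariate and −0.371 in the paired fit without low-Col1a1 libraries. Leaving out a unit gave −0.116 to 0.397 for Havcr2, −0.04 to 0.512 for Lag3 and −0.577 to 1.801 for Pdcd1. In p53R172H/fl against p53fl/fl, Cd47 had −0.127 within set C, Pdcd1 −0.956 within set B and −0.823 with the Cd3e covariate, and Cd3e −0.01 with itself as covariate.

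Of the 2 members called with Cd3e, 0 were called within any genotype, within the units of set A or C or without low-Col1a1 units, and 1 (Pdcd1) with genotype means removed. The Spearman correlation with Cd3e was negative for Cd47 without the 2 farthest units (−0.025) and without low-Col1a1 units (−0.039), and within p53R172H/fl for Havcr2 (−0.016) and Cd276 (−0.423). With the interferon gamma list, 1 member was called without the 2 farthest or the low-Col1a1 units and 0 within the units of set A or C. The Spearman correlation with the macrophage mean was −0.012 for Cd274 and −0.086 for Cd276 without the 2 farthest units and −0.162 for Cd276 within the units of set C; with the osteoblast mean it was −0.001 for Lag3 and −0.102 for Pdcd1 within the units of set C. Depth limits Pdcd1lg2, Tigit and Vtcn1, which were under the filter, and Pdcd1, Ctla4 and Cd3e, whose counts were low.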
